A study of Mus musculus with 18 samples.

Results

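The comparison described here is the response of Prep-/- macrophages to lipopolysaccharide (LPS), which is 6 of the 18 RNA-seq libraries of the series. The members were chosen by the sample labels alone and are the 3 Prep-/- M1 libraries and the 3 Prep-/- M0 libraries. Bone marrow-derived macrophages (BMDMs) are primary cells grown from marrow precursors. Here marrow from the femora of Prep-/- mice on a C57BL/6J background was grown for 7 days in 50 ng/ml M-CSF, the growth factor that drives marrow precursors to macrophages. M0 cells were then left unstimulated, and M1 cells received 50 ng/ml LPS for 24 h. M2 cells received 20 ng/ml each of IL-4 and IL-13 and are in no comparison here, but entered the gene filter, the scaling and the shared estimate of spread. The genotype controls were heterozygous Prep+/- littermates with the same 3 states and the same M-CSF culture, so that no group carried 2 intact copies of Prep. The ages of the mice were not given in the sources used here, and the labels do not say whether replicates came from separate animals, which the study's methods call biological replicates. The p-values below therefore measure the spread between these libraries.

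LPS is a cell wall component of Gram-negative bacteria. It is passed by CD14 to the receptor pair TLR4 and MD-2, and the adaptors MYD88 and TRIF then switch on NF-κB, AP-1 and IRF3. The first wave of cytokines includes interferon beta, which acts back on the same cells through the interferon receptor and adds a second wave of interferon-stimulated genes. Macrophages held in LPS for a day are also known to turn towards glycolysis, to make nitric oxide and itaconate, and to leave the cell cycle. PREP, prolyl endopeptidase, is a serine protease that cuts short peptides after proline.

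The 6 libraries held between 20209730 and 22598279 counts. Prep (Ensembl ENSMUSG00000019849.13, GRCm39 chr10:44943130-45043294), the targeted gene, had normalized counts of 42.2, 42.5 and 31.3 in M0 and 35.2, 47.0 and 59.2 in M1 in Prep-/- cells. For a normalized count, each count was scaled to a common library size with the TMM factors of the 18 libraries, so that values compare between libraries but not between genes of different length. The same gene had normalized counts of 638, 739 and 900.0 in M0 and 681, 551 and 663 in M1 in Prep+/- cells. The Prep-/- libraries were far below every Prep+/- library, and the residual signal did not differ between M1 and M0 past the thresholds (log2 fold change 0.29 ± 0.21, adjusted p = 0.261, ± SE). Of 8 macrophage markers, all 8 were tested, and their summed level was 30385 to 48180.0 CPM (the usual unit of counts relative to library size, here with TMM factors) in M0 and 30999.7 to 37042 CPM in M1. Along the first principal component, which took 84.1% of the variance, the 3 M0 libraries separated from the 3 M1 libraries. Along the second, which took 8.21%, M0 replicate 3 stood apart at a score of -34.8 against 17.3 and 21.0 for the other M0 libraries. Counts of genes that rest on this library are therefore also given without it.

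Of 12021 genes tested, 2518 rose (20.9%) and 2530 fell (21.0%) in Prep-/- M1 against Prep-/- M0, which is 42.0% in all. A gene was called when its Benjamini-Hochberg adjusted p in edgeR's quasi-likelihood test was under 0.05 and its fold change was over 1.5. The M0 and M1 libraries did not overlap for 7028 genes, or 58.5%, and 4835 of the called genes were among them. Changes over 4-fold were seen for 620 genes upward and 591 downward, changes over 16-fold for 183 and 137, and changes over 64-fold for 58 and 31. Without M0 replicate 3 the counts were 2335 and 2478. The genes that rose held 15.2 to 16.9% of all counts in the M0 libraries and 41.2 to 43.3% in the M1 libraries, and the genes that fell went from 27.1 to 29.2% down to 10.1 to 10.8%. The split of the calls depended on scaling: with library totals alone in place of TMM factors, the median log2 value over the genes tested moved from 0.00 to -0.26, the counts were 1709 and 3681, and the share of called genes that rose went from 49.9% to 31.7%. The fold changes below are relative to the TMM-scaled centre. Counts of list members that rose or fell are set against the 20.9% and 21.0% of all genes tested. For counts in Prep+/- cells the shares of all genes tested are 16.7% higher and 20.9% lower. Counts of list members whose response differed between the genotypes are set against 12% higher and 9.15% lower in Prep-/- cells. The plot of fold change against level shows the called genes at all levels of expression.

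**Figure D1:**
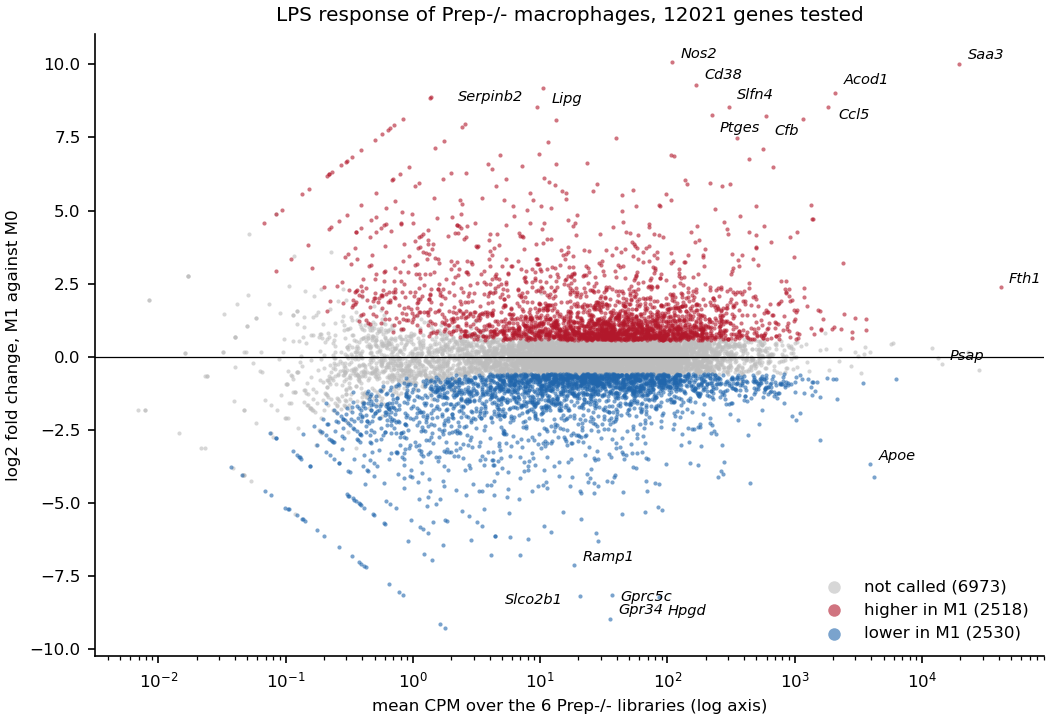
Each point is 1 of the 12021 genes tested, with its mean CPM over the 6 Prep-/- libraries on a log axis and its log2 fold change in M1 against M0 on the y axis. The 2518 genes that rose (red) and the 2530 that fell (blue) spread to both sides of 0 at all levels, Saa3 and Fth1 reached the highest levels among the labelled genes, and the diagonal lines of points at the far left are genes with no or few counts in 1 group, whose fitted fold change depends on the prior count.

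The promoters below, read from the GRCm39 genome, show letters that LPS-induced transcription factors are known to bind. They were picked by hand for display and each holds a match, so they do not represent the genes that rose. Each is the run of 250 bases before the annotated start of the gene's canonical transcript (GENCODE M39), 5′ to 3′ on the gene's own strand. The capitals mark every match to GGGANTTNC or GGGGNTTNC, the core of an NF-κB site, and to GAAANNGAA, the core of an interferon response element, where N is any base and both strands were searched. The windows of the chemokine Ccl5 and the complement factor Cfb held an NF-κB core alone, and that of the antiviral gene Rsad2 an interferon response core alone, in all 3 with the letters on the opposite strand. The inhibitor Nfkbia and the GTPase Gbp6 held both. In Nfkbia the first and the last match are NF-κB cores and the middle one is an interferon response core, with the last 2 on the opposite strand. In Gbp6 the first match is an NF-κB core and the second an interferon response core.
Nfkbia: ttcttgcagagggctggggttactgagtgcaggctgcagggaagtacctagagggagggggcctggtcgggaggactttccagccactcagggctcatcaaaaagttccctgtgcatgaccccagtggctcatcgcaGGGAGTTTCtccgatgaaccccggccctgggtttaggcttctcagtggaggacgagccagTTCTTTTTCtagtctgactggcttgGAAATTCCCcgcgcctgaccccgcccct
Ccl5: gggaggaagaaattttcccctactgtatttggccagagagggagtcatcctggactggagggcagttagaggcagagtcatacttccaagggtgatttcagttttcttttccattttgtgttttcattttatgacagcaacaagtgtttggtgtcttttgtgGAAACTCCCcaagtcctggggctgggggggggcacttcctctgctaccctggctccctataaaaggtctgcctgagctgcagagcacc
Cfb: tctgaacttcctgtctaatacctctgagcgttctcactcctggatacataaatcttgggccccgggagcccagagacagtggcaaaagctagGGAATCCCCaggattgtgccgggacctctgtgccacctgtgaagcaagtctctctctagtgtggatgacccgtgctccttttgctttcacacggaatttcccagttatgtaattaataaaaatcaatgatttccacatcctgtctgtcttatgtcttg
Rsad2: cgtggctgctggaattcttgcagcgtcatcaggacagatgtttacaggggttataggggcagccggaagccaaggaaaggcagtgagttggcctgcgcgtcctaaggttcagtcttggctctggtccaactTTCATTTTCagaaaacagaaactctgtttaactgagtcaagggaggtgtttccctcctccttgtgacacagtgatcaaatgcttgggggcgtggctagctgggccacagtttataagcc
Gbp6: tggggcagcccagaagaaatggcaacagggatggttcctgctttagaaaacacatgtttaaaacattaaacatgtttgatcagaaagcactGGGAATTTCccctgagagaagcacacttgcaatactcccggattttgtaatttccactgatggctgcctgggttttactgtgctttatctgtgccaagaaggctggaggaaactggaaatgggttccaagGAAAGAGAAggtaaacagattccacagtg
These windows are Nfkbia chr12:55539433-55539682, minus strand. Ccl5 is at chr11:83421346-83421595, minus strand. Cfb is at chr17:35081560-35081809, minus strand. Rsad2 is at chr12:26506452-26506701, minus strand. Gbp6 is at chr5:105441832-105442081, minus strand.

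Of 11715 tested genes with such a window, 8.22% held an NF-κB core and 7.15% an interferon response core. The 2454 windows of genes that rose held them at 9.09% and 8.80%, and the 2464 windows of genes that fell at 7.67% and 6.86%. For the 606 genes over 4-fold higher the shares were 10.9% and 13.4%, and for the 571 over 4-fold lower they were 8.41% and 5.78%. Of the gene lists, 7 of 15 genes of NF-κB subunits and inhibitors (46.7%) and 8 of 19 chemokine genes (42.1%) held an NF-κB core, and 13 of 27 interferon-stimulated genes (48.1%) and 8 of 14 guanylate-binding protein and immunity-related GTPase genes (57.1%) held an interferon response core. An NF-κB core was also held by 4 of 23 cytokine genes (17.4%) and by 5 of 25 mitosis genes (20.0%), a list that fell throughout. Of the 154 genes named in this report with a window, 14 held an NF-κB core and 18 an interferon response core. Those 14 include genes that rose, such as Ccl5, and genes that fell, such as H2-Aa and Cdc20. These shares are descriptions of letters in a short window and were not tested.

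The genes of the LPS receptor itself were not called in Prep-/- cells with TMM scaling. Tlr4 had 2091, 2441 and 1802 in M0 and 2447, 2206 and 2362 in M1 (normalized counts here and below), with a log2 fold change 0.15 ± 0.12, adjusted p = 0.293 (here and below ± is the standard error of the fit, n = 3 libraries per group, and the adjusted p is that of edgeR). The M0 and M1 values of Tlr4 overlapped. Ly96, which encodes MD-2, had 707, 595 and 842 in M0 and 599, 450.3 and 657 in M1, and its groups overlapped too (log2 fold change -0.33 ± 0.15, adjusted p = 0.0772). With library totals alone Ly96 was called lower, just past the fold criterion (log2 fold change -0.59, adjusted p = 0.00149). Cd14, the co-receptor, had 12453, 7480.0 and 8389.9 in M0 and 11783, 13492 and 14526 in M1 and did not pass the fold change criterion (log2 fold change 0.49 ± 0.19, adjusted p = 0.0351). M0 replicate 1 lay inside the M1 range, and without that library Cd14 was called, at a log2 fold change of 0.74 and an adjusted p of 0.00261. All 3 genes were called in Prep+/- cells: Tlr4 fell at a log2 fold change of -0.69, Ly96 rose at 1.04 and Cd14 rose at 2.27. The test of the difference between the 2 responses, an interaction contrast of all 4 groups, called all 3 (Tlr4 difference 0.84 ± 0.16, adjusted p = 0.00196, Ly96 difference -1.37 ± 0.22, adjusted p = 0.000414, Cd14 difference -1.78 ± 0.27, adjusted p = 0.000282). In M0, every Prep-/- library was above every Prep+/- library for Cd14 and for Ly96.

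Of 22 genes of TLR4 recognition and signalling, 7 rose, 1 fell and 14 were not called, with a median log2 fold change of 0.35 that went to 0.08 with library totals alone, where 3 rose and 3 fell, and 2 fell without M1 replicate 1. Irak3, a kinase-dead member of the IRAK family that dampens TLR signalling, had the largest rise with 894, 857 and 422 in M0 and 3917, 5437 and 4833 in M1 (log2 fold change 2.71 ± 0.22, adjusted p = 3.78e-08). Every M1 library was above every M0 library. Ikbke, the kinase of the interferon arm, had 4046, 2594 and 2229.5 in M0 and 7770.1, 7884 and 8443 in M1 (log2 fold change 1.44 ± 0.19, adjusted p = 6.14e-06). The member that fell was Irak4, the kinase that starts signalling from MYD88, with 1435, 1505 and 1394 in M0 and 1019.7, 885 and 845 in M1 (log2 fold change -0.66 ± 0.11, adjusted p = 8.1e-05).

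Inhibitors of NF-κB were among the genes that rose. Of 15 subunits and inhibitors, 9 rose and 1 fell (median log2 fold change 0.86). Nfkbia, which encodes IκBα and whose promoter is printed above, went from 2468, 1684 and 1971 in M0 to 7618, 7706 and 7954 in M1 (log2 fold change 1.93 ± 0.16, adjusted p = 5.83e-08). The ubiquitin-editing inhibitor Tnfaip3, known as A20, had 759, 429 and 233 in M0 and 2968, 2112 and 2429 in M1 (log2 fold change 2.40 ± 0.34, adjusted p = 1.57e-05), and its partner Tnip3 had 998, 688 and 539 in M0 and 5758, 4545 and 4562 in M1 (log2 fold change 2.74 ± 0.27, adjusted p = 3.41e-07). The M1 libraries of all 3 genes were above all M0 libraries. Tnip3 rose further in Prep-/- than in Prep+/- cells (difference 1.5 ± 0.36, adjusted p = 0.0071), and Nfkbia rose less (difference -0.88 ± 0.22, adjusted p = 0.00913). The member that fell, the nuclear inhibitor Nfkbid, had 402, 305 and 345 in M0 and 183, 186 and 239 in M1 (log2 fold change -0.79 ± 0.27, adjusted p = 0.0196), and its call was lost without M0 replicate 1 (log2 fold change -0.68, adjusted p = 0.0672).

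Among STAT factors, IRFs and SOCS proteins, 9 of 21 rose and 2 fell (1 fell without M0 replicate 1 and with the replicate block over the 6 libraries). Irf7, the interferon-amplifying transcription factor and the member with the highest mean CPM, had 3207, 1642 and 1635 in M0 and 61519.9, 48566 and 58791 in M1 (log2 fold change 4.70 ± 0.39, adjusted p = 5.78e-08). Socs3, the feedback inhibitor of IL-6 family receptors, had 275, 245 and 123 in M0 and 14261, 11901 and 12486 in M1 (log2 fold change 5.91 ± 0.24, adjusted p = 2.18e-11). Of AP-1 members, early genes and MAPK phosphatases, 13 of 22 rose and 2 fell (median 1.32, against 0.53 in Prep+/- cells). Dusp1, the phosphatase that switches off p38 and JNK, had 375, 272 and 313 in M0 and 8912, 4586 and 4864 in M1 (log2 fold change 4.26 ± 0.45, adjusted p = 8.05e-07). Atf3, a stress-induced repressor of cytokine genes, had 3676, 2723 and 2410.2 in M0 and 13402, 6422 and 8301 in M1 (log2 fold change 1.67 ± 0.24, adjusted p = 1.89e-05). Fos had 623, 304 and 259 in M0 and 2102, 1981 and 2959 in M1 (log2 fold change 2.57 ± 0.45, adjusted p = 0.000135). For Dusp1 the rise was larger than in Prep+/- cells (difference 2.62 ± 0.57, adjusted p = 0.00409), as it was for Atf3 (difference 1.17 ± 0.33, adjusted p = 0.0179). For Dusp1 every Prep-/- M0 library was below the Prep+/- M0 libraries, at 518 to 1233, and every Prep-/- M1 library above the Prep+/- M1 libraries, at 2297 to 3020.2. The M0 libraries of the 2 genotypes overlapped for Atf3.

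Cytokine genes rose. Of 27 in the table, 23 passed the filter on low counts, 15 rose and 2 fell, with a median log2 fold change of 2.48. Il1b, the precursor of IL-1β, had 188, 64.7 and 41.0 in M0 and 2036, 4321 and 4233 in M1 in Prep-/- cells (log2 fold change 5.18 ± 0.44, adjusted p = 6.3e-08). Prep+/- cells had 22.2, 29.2 and 20.4 in M0 and 12909, 18853 and 19015 in M1 and a log2 fold change of 9.46. The response of Il1b was smaller in Prep-/- cells by the test of the difference (difference -4.27 ± 0.61, adjusted p = 0.000179): the Prep-/- M1 libraries lay below every Prep+/- M1 library, and the Prep-/- M0 libraries above every Prep+/- M0 library. Il6 was at 3 counts or fewer in each M0 library and had normalized counts of 0, 0 and 2.93 in M0 and 106, 59.8 and 84.0 in M1, at least 29.0-fold higher when each M0 library is set at 3 counts. Its rise in Prep+/- cells, to 124 to 279.6 from at most 3 counts, was at least 79.1-fold, and the 2 responses were not called different (difference -2.70 ± 1.74, adjusted p = 0.271). Tnf had 162, 112 and 135 in M0 and 1585, 1876 and 2761 in M1 (log2 fold change 3.93 ± 0.56, adjusted p = 1.8e-05), and its response was not called different from that of Prep+/- cells (difference 0.43 ± 0.71, adjusted p = 0.687).

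Il1a, the other IL-1 agonist, had 4.02, 0.886 and 0.977 in M0 and 396, 606 and 684 in M1 (log2 fold change 8.11 ± 0.43, adjusted p = 3.68e-10). Il1rn, the natural antagonist of both and the list member with the highest mean CPM, had 416, 216 and 306 in M0 and 32816, 19941 and 31625 in M1 (log2 fold change 6.49 ± 0.98, adjusted p = 3.14e-05). Every M1 library of both genes was above every M0 library. The list members that fell were Pdgfb, with 1013, 591 and 953 in M0 and 369.6, 335 and 353 in M1 (log2 fold change -1.27 ± 0.43, adjusted p = 0.0181), and Tgfb1. The fall of Pdgfb was lost without M0 replicate 1, at an adjusted p of 0.0552. Tgfb1, the anti-inflammatory and profibrotic cytokine, had 9098, 7026 and 9370.4 in M0 and 4382, 5343 and 5896 in M1 (log2 fold change -0.71 ± 0.12, adjusted p = 9.31e-05), while in Prep+/- cells it had 6741, 6408 and 6536 in M0 and 8694, 9263 and 8885 in M1 and was not called (log2 fold change 0.45 ± 0.12, adjusted p = 0.00456). The 2 responses of Tgfb1 differed (difference -1.15 ± 0.17, adjusted p = 0.00021).

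Of 19 tested chemokine genes, 13 rose and 2 fell (median log2 fold change 3.70, against 5.28 in Prep+/- cells). Ccl5, which draws T cells and monocytes, had the highest mean CPM of the list and went from 407, 160.3 and 53.7 in M0 to 84129, 68542 and 79185 in M1 (log2 fold change 8.55 ± 0.67, adjusted p = 2.63e-08). M0 replicate 3 was the lowest of its M0 libraries, and every M1 library was far above all of them. Ccl7, a monocyte attractant, had 103, 45.2 and 101 in M0 and 14254, 8673 and 21242 in M1 (log2 fold change 7.48 ± 0.69, adjusted p = 1.62e-07). The 2 that fell were Ccl24, an eosinophil attractant of alternatively activated cells, with 103, 242 and 323 in M0 and 13.2, 3.2 and 7.54 in M1 (log2 fold change -4.79 ± 0.49, adjusted p = 5.71e-07), and Ccl6. Ccl6 had 5398, 3793 and 4878 in M0 and 2456, 2578 and 3963 in M1 (log2 fold change -0.64 ± 0.19, adjusted p = 0.00767), with groups that overlapped. Its call was lost without M0 replicate 1 (log2 fold change -0.53) and without M1 replicate 1 (-0.56), both under the fold criterion. Ccl6 rose instead in Prep+/- cells, from 2101, 2112 and 1984 in M0 to 4922, 5978 and 7059.9 in M1 (difference -2.18 ± 0.27, adjusted p = 5.22e-05).

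All 27 interferon-stimulated genes of the list rose in Prep-/- cells (26 with library totals alone), with log2 fold changes from 0.73 to 5.90 and a median of 2.53. Ifi205, a DNA-sensing HIN-200 protein, had 171, 59.4 and 68.4 in M0 and 8756, 3360.5 and 5581 in M1 (log2 fold change 5.90 ± 0.41, adjusted p = 7.38e-09), with the caution that it is 92.3 to 97.4% identical to Ifi204, Ifi211 and Mndal over 818 to 1110 of its 1763 transcript bases. Oasl1, an antiviral translation regulator, had 257, 144 and 179 in M0 and 16089, 6805 and 10646 in M1 (log2 fold change 5.86 ± 0.41, adjusted p = 8.23e-09). Rsad2, which encodes viperin, was the member with the highest mean CPM and had 2853, 1610.4 and 1979.5 in M0 and 96597, 22489 and 48390.5 in M1 (log2 fold change 4.70 ± 0.51, adjusted p = 8.94e-07). Among the M1 libraries of all 3 genes, replicate 1 was the highest and replicate 2 the lowest, and no M0 library overlapped them. All 27 rose in Prep+/- cells as well, with a median of 3.40. The rise was smaller in Prep-/- cells for 11 of the 27 and larger for 0, against 9.15% and 12% of all genes tested. The count of 11 was 5 without M0 replicate 1 and 5 without M1 replicate 2, 16 with the replicate block and 15 in DESeq2.

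The guanylate-binding proteins and immunity-related GTPases, which attack vacuoles of intracellular microbes, rose in 13 of 14 tested genes. Gbp2, the member with the highest mean CPM, had 2911, 1492 and 1204 in M0 and 13199.6, 5943 and 8591 in M1 (log2 fold change 2.31 ± 0.34, adjusted p = 2.7e-05). Gbp6, whose promoter is printed above, had 65.2, 36.3 and 18.6 in M0 and 2416, 1439.6 and 1649 in M1 (log2 fold change 5.52 ± 0.38, adjusted p = 6.8e-09). Tgtp2 had 248, 155 and 73.2 in M0 and 3433, 1105 and 2083 in M1 (log2 fold change 3.80 ± 0.47, adjusted p = 3.88e-06). The Gbp6 transcript is 99.2% identical to Gbp10, and over shorter stretches 91.4% to Gbp4 and 91.5% to Gbp9. That of Tgtp2 is 99.8% identical to Tgtp1, so the division of reads among these copies is uncertain. In Prep+/- M0 cells Gbp2 was at 228 to 284, against 1204 to 2911 in Prep-/- M0 cells, and its rise was larger there (difference -1.93 ± 0.48, adjusted p = 0.00819). Class I presentation followed, with 14 of 16 genes higher (11 with library totals alone) and 0 lower. Tap1, the peptide transporter, had 2400.0, 1677 and 2125 in M0 and 10718, 7158 and 8379 in M1 (log2 fold change 2.08 ± 0.16, adjusted p = 1.88e-08). Nlrc5, the transactivator of class I genes, had 721, 604 and 407 in M0 and 2724, 1934 and 2121 in M1 (log2 fold change 1.97 ± 0.21, adjusted p = 6.55e-07). B2m, the light chain of class I molecules, had 60313, 44412 and 53658 in M0 and 111782, 89502 and 100313 in M1 (log2 fold change 0.93 ± 0.15, adjusted p = 5.04e-05). The rise of B2m was smaller than in Prep+/- cells, where it went from 22899, 20961 and 20441 in M0 to 84298, 98636 and 96946 in M1 (difference -1.19 ± 0.21, adjusted p = 0.000804).

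MHC class II genes moved the other way. Of 10 genes, 7 fell and 0 rose, at a median log2 fold change of -1.53. Ciita, the master transactivator of class II genes, had 482, 291 and 106 in M0 and 2.2, 3.2 and 2.15 in M1. All 3 M1 libraries held 3 counts or fewer, so Ciita was at least 90.3-fold lower when each is set at 3 counts. H2-Aa and H2-Ab1, which encode the α and β chains of I-A, the class II molecule of these mice, were highest in M0 replicate 1. H2-Aa had 3521, 518 and 427 in M0 and 91.3, 71.5 and 68.9 in M1 (log2 fold change -4.27 ± 0.65, adjusted p = 3.63e-05), and without M0 replicate 1 its log2 fold change was -2.61. H2-Ab1 had 4934, 722 and 704 in M0 and 392, 445 and 467 in M1 (log2 fold change -2.28 ± 0.56, adjusted p = 0.00218), and without that library it was -0.71. All M1 libraries were below all M0 libraries for these 3 genes. Leaving out each library in turn kept 6 to 7 of the 10 genes lower. Ctss, the protease that trims the invariant chain and the member with the highest mean CPM, was not called (log2 fold change 0.09 ± 0.16, adjusted p = 0.667).

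In Prep+/- cells 3 of the 10 class II genes rose and 1 fell, with a median of 0.59. H2-Ab1 had 116, 124 and 72.1 in M0 and 871, 1178 and 934 in M1 there (log2 fold change 3.26 ± 0.60, adjusted p = 0.000233). The response of 6 of the 10 genes was lower in Prep-/- cells by the test of the difference, with H2-Ab1 at a difference -5.54 ± 0.82, adjusted p = 0.000229 and H2-Aa at a difference -4.64 ± 0.91, adjusted p = 0.00193, and 6 to 7 were lower with any 1 Prep-/- library left out. The Prep+/- M0 libraries of H2-Ab1, at 72.1 to 124, were all below the Prep-/- M0 libraries, at 704 to 4934. Of 20 tested costimulatory and adhesion molecules, 11 rose and 4 fell in Prep-/- cells, the falls near the 21.0% of all genes tested. Cd69, an early activation marker, had 88.3, 54.9 and 50.8 in M0 and 3730.0, 1049 and 2159 in M1 (log2 fold change 5.16 ± 0.42, adjusted p = 3.71e-08). Itgam, which encodes CD11b, had 12608, 12357 and 7795 in M0 and 29482, 37096 and 33589.9 in M1 (log2 fold change 1.61 ± 0.27, adjusted p = 7.49e-05). Icosl, the ligand of the T cell receptor ICOS, fell from 659, 506 and 369 in M0 to 133, 171 and 164 in M1 (log2 fold change -1.71 ± 0.24, adjusted p = 1.52e-05). Itgax, which encodes CD11c, had 223, 51.4 and 262 in M0 and 38.5, 22.4 and 68.9 in M1 (log2 fold change -2.04 ± 0.68, adjusted p = 0.0177), with groups that overlapped, and its call was lost without M0 replicate 1 (adjusted p = 0.0504), M0 replicate 3 (adjusted p = 0.0714) or M1 replicate 2 (adjusted p = 0.0644).

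**Figure D2:**
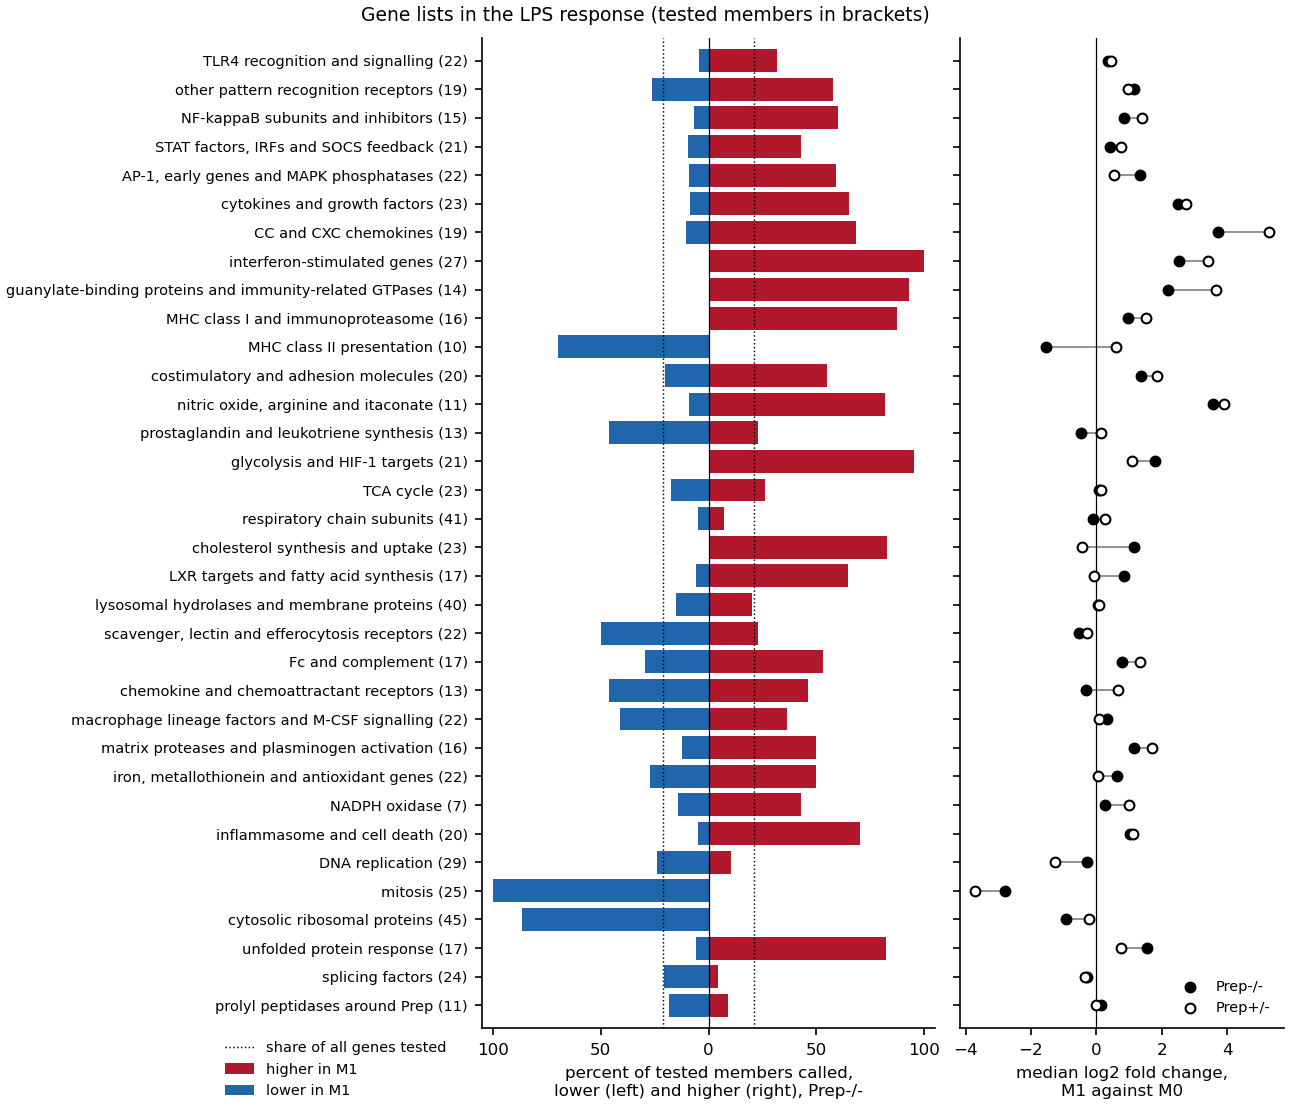
The left panel gives, for each of 34 gene lists, the percent of tested members that fell (blue, to the left) and rose (red, to the right) in Prep-/- M1 against M0, with dotted lines at the 21.0% and 20.9% of all genes tested. The right panel gives the median log2 fold change of each list in Prep-/- (filled) and Prep+/- (open) cells, with the widest gaps in the lists of MHC class II, cholesterol and chemokine genes.

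Genes that make nitric oxide and itaconate were among the largest rises. Of 11 genes of nitric oxide, arginine and itaconate metabolism, 9 rose and 1 fell. Nos2 (ENSMUSG00000020826.10, GRCm39 chr11:78811613-78851080), which encodes the inducible nitric oxide synthase, had 5.02, 7.09 and 0 in M0 and 7996, 2309 and 3443 in M1 (log2 fold change 10.08 ± 0.77, adjusted p = 2.24e-08). No gene that averaged 5 CPM or more, with groups apart, had a larger log2 fold change. Replicate 1 was the highest of its M1 libraries and replicate 2 the lowest. Acod1, the enzyme that makes itaconate, had 228, 225 and 46.9 in M0 and 95353, 76819 and 90225 in M1 (log2 fold change 9.03 ± 0.62, adjusted p = 6.86e-09). Arg1, arginase, which competes with Nos2 for arginine, also rose, from 21.1, 22.1 and 3.91 in M0 to 553, 551 and 893 in M1 (log2 fold change 5.38 ± 0.35, adjusted p = 3.31e-09). For Nos2 the Prep+/- values were 0.965, 2.51 and 0 in M0 and 807, 481 and 705 in M1. Every Prep-/- M1 library of Nos2 was above every Prep+/- M1 library, but with M0 near 0 in both genotypes the fold changes were not called different (difference 1.08 ± 2.56, adjusted p = 0.783). The difference was not called for Acod1 (difference 0.74 ± 0.64, adjusted p = 0.42) or Arg1 (difference -0.53 ± 0.48, adjusted p = 0.44) either. The member that fell was Sat1, which starts the breakdown of polyamines, with 15269, 12473 and 16346 in M0 and 10691, 5859.7 and 7442 in M1 (log2 fold change -0.88 ± 0.27, adjusted p = 0.0115), and its call was lost without M1 replicate 2 (adjusted p = 0.0524).

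Of the other macrophage state markers shown by the study, Mrc1, the mannose receptor, fell from 17017, 18582 and 20166 in M0 to 4118, 3288 and 3815 in M1 (log2 fold change -2.31 ± 0.18, adjusted p = 2.06e-08). Chil3 had 585, 279.9 and 175 in M0 and 178, 216 and 219 in M1 (log2 fold change -0.76 ± 0.33, adjusted p = 0.0582) and Retnla had 89.3, 23 and 1.95 in M0 and 25.3, 56.6 and 70.0 in M1 (log2 fold change 0.43 ± 0.70, adjusted p = 0.618). Both had overlapping groups and were not called. Chil3 was called lower in DESeq2 (adjusted p = 0.0336), with library totals alone (adjusted p = 0.0134) and without M0 replicate 2 (log2 fold change -0.93) or M0 replicate 3 (-1.11), and Retnla was called higher without M0 replicate 1, at a log2 fold change of 1.97 and an adjusted p of 0.0326. The Chil3 transcript is 94.3% identical to Chil4, and 231 of the 618 bases of Retnla are 91.3% identical to Retnlg.

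Of 13 tested genes of prostaglandin and leukotriene synthesis, 3 rose, near the 20.9% of all genes tested, and 6 fell, against 21.0%. Ptges, the inducible synthase of prostaglandin E2, had 24.1, 46.9 and 19.5 in M0 and 9543, 9255 and 9306 in M1 (log2 fold change 8.25 ± 0.26, adjusted p = 2.08e-12). Ptgs2, which encodes COX-2, had 3.01, 13.3 and 0 in M0 and 702, 475 and 486 in M1 (log2 fold change 6.58 ± 0.65, adjusted p = 3.56e-07). Ptgs1, the constitutive COX-1, fell from 504, 435 and 346 in M0 to 22, 39.5 and 26.9 in M1 (log2 fold change -3.85 ± 0.20, adjusted p = 2.72e-10). Hpgd, the dehydrogenase that breaks prostaglandin E2 down, fell from 3793, 3868 and 3229.6 in M0 to 17.6, 6.4 and 12.9 in M1 (log2 fold change -8.19 ± 0.65, adjusted p = 3.37e-08), the second largest fall among genes that averaged 5 CPM or more. Ptgs1 fell further in Prep-/- than in Prep+/- cells (difference -1.63 ± 0.26, adjusted p = 0.000486). For Hpgd the difference was not called (difference -1.13 ± 1.4, adjusted p = 0.58).

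Among pattern recognition receptors other than TLR4, 11 of 19 rose and 5 fell. Clec4e, which encodes Mincle, a receptor for mycobacterial glycolipid, had 1748, 1766 and 1032 in M0 and 48812, 57813 and 58772 in M1 (log2 fold change 5.18 ± 0.21, adjusted p = 2.96e-11). Zbp1, a sensor of Z-form nucleic acid, had 1015, 454 and 595 in M0 and 8517, 6157 and 7517 in M1 (log2 fold change 3.43 ± 0.32, adjusted p = 1.65e-07), a smaller rise than in Prep+/- cells, where it had 114, 94.4 and 115 in M0 and 6064, 7017 and 7030.4 in M1 (difference -2.53 ± 0.43, adjusted p = 0.000695). Clec7a, which encodes Dectin-1, the β-glucan receptor, fell from 4828, 3775 and 2776 in M0 to 295, 192 and 403 in M1 (log2 fold change -3.68 ± 0.26, adjusted p = 9.03e-09). All M1 libraries of Clec7a were below all M0 libraries, and the fall was larger than in Prep+/- cells (difference -2.87 ± 0.34, adjusted p = 4.24e-05). Sting1, the adaptor of cytosolic DNA sensing, fell from 1953, 1944 and 1604 in M0 to 877, 897 and 872 in M1 (log2 fold change -1.06 ± 0.13, adjusted p = 2.88e-06).

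Of 22 tested scavenger, lectin and efferocytosis receptor genes, 5 rose, near the 20.9% of all genes tested, and 11 fell, against 21.0%. Marco, a scavenger receptor for bacteria, had 126, 244 and 131 in M0 and 13182, 21703 and 20209 in M1 (log2 fold change 6.77 ± 0.46, adjusted p = 6.86e-09). Msr1, scavenger receptor A, had 2260.5, 2128 and 2006 in M0 and 36041, 34098 and 39115 in M1 (log2 fold change 4.09 ± 0.21, adjusted p = 2.34e-10). Clec10a, a galactose lectin of alternatively activated cells, fell from 3089, 2251 and 2868 in M0 to 69.3, 70.4 and 68.9 in M1 (log2 fold change -5.30 ± 0.26, adjusted p = 1.84e-10). Over 837 of its 2476 transcript bases it is 93.7% identical to Mgl2. Gas6, a bridging ligand for the uptake of dead cells, fell from 12713, 17739 and 16476 in M0 to 2656, 2228 and 2525 in M1 (log2 fold change -2.66 ± 0.25, adjusted p = 2.28e-07). Tyrobp, the signalling adaptor DAP12 and the member with the highest mean CPM, fell from 32139.8, 25244 and 27915 in M0 to 19142, 17237 and 19153 in M1 (log2 fold change -0.62 ± 0.12, adjusted p = 0.000356), although without M0 replicate 1 it was at -0.52, under the fold criterion. The rise of Msr1 was larger in Prep-/- cells, whose M0 libraries were all below those of Prep+/- cells at 8362 to 11623 (difference 1.95 ± 0.26, adjusted p = 0.000106). The fall of Clec10a was larger (difference -3.23 ± 0.35, adjusted p = 2.53e-05), from M0 libraries that were all above those of Prep+/- cells, at 202 to 372.

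Of 17 tested Fc receptor and complement genes, 9 rose and 5 fell. Without M0 replicate 1, 3 fell. Cfb, factor B of the alternative pathway, had 135, 87.7 and 27.3 in M0 and 25241, 24588 and 25171 in M1 (log2 fold change 8.23 ± 0.48, adjusted p = 1.2e-09). C3, the central component, had 2515, 1171 and 349 in M0 and 16329, 14895 and 13419 in M1 (log2 fold change 3.47 ± 0.47, adjusted p = 1.1e-05). C1qb, of the first component, was the member with the highest mean CPM and had 69816, 41752 and 46541 in M0 and 36545, 27496 and 29520.4 in M1 (log2 fold change -0.76 ± 0.19, adjusted p = 0.00237), and without M0 replicate 1 its log2 fold change was -0.50, under the fold criterion. Of 13 tested chemoattractant receptors, 6 rose and 6 fell. Fpr1 and Fpr2, receptors of bacterial formyl peptides, had 71.3, 41.6 and 10.7 in M0 and 3468, 5272 and 5542 in M1 (log2 fold change 6.85 ± 0.41, adjusted p = 1.52e-09) and 179, 52.3 and 31.3 in M0 and 5677, 5355 and 6096 in M1 (log2 fold change 6.04 ± 0.42, adjusted p = 8.26e-09). Cxcr4, the receptor that holds cells in the marrow, fell from 3103, 2495 and 2652 in M0 to 214, 121 and 99.1 in M1 (log2 fold change -4.25 ± 0.35, adjusted p = 5.19e-08). Cxcr3 fell from 202, 175 and 218 in M0 to 14.3, 18.1 and 9.69 in M1 (log2 fold change -3.80 ± 0.41, adjusted p = 1.02e-06). P2ry6, a receptor for UDP and the member with the highest mean CPM, fell from 9206, 7663 and 8088 in M0 to 4983, 4699.7 and 5113 in M1 (log2 fold change -0.75 ± 0.10, adjusted p = 6.24e-06), where in Prep+/- cells it rose from 4488, 3831 and 4087 in M0 to 6595, 6444 and 6508 in M1 (difference -1.41 ± 0.14, adjusted p = 9.33e-06).

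The M-CSF receptor fell in Prep-/- cells. Csf1r, which encodes it, had 86720.0, 71771 and 42953 in M0 and 23662, 26214 and 23524 in M1 (log2 fold change -1.46 ± 0.20, adjusted p = 1.28e-05), while Prep+/- cells had 24489, 24549 and 27666 in M0 and 28398, 25549 and 27833 in M1 and no call (log2 fold change 0.09 ± 0.20, adjusted p = 0.717). The M1 libraries of the 2 genotypes overlapped, and every Prep-/- M0 library was above every Prep+/- library of either state. The 2 responses of Csf1r differed (difference -1.55 ± 0.28, adjusted p = 0.00109). Of the 22 macrophage lineage genes, 8 rose and 9 fell. The 8 went to 4 without M1 replicate 3, and to 5 without M0 replicate 2, without M1 replicate 2 or with library totals alone, with 9 lower each time. Cebpb, which encodes the C/EBP factor of activated macrophages, had 2930.0, 2273 and 3788 in M0 and 13924, 11971 and 13838 in M1 (log2 fold change 2.14 ± 0.17, adjusted p = 2.46e-08). Cebpa, the C/EBP factor of lineage commitment, fell from 4198, 3544 and 4043 in M0 to 975, 973 and 953 in M1 (log2 fold change -2.02 ± 0.13, adjusted p = 3.66e-09). Mef2c fell from 2329, 2044 and 1652 in M0 to 766, 653 and 621 in M1 (log2 fold change -1.56 ± 0.25, adjusted p = 4.99e-05). Id2, an inhibitor of E proteins, rose from 879, 659 and 1078 in M0 to 4922, 2878 and 3473 in M1 (log2 fold change 2.11 ± 0.24, adjusted p = 2.04e-06).

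Of 16 tested matrix protease genes, 8 rose and 2 fell. Mmp14, a membrane-bound collagenase, had 1128, 417 and 167 in M0 and 17857, 21899 and 21121 in M1 (log2 fold change 5.15 ± 0.54, adjusted p = 6.43e-07), with M0 replicate 1 the highest of the M0 libraries. Adam8 had 5504, 4994 and 4929 in M0 and 29254, 28531 and 34646 in M1 (log2 fold change 2.58 ± 0.23, adjusted p = 1.12e-07). Timp2, an inhibitor of these proteases, fell from 7381, 5787 and 5522 in M0 to 2322, 1815 and 1955 in M1 (log2 fold change -1.62 ± 0.17, adjusted p = 6.49e-07). Mmp8, the collagenase of neutrophils, fell from 792, 1506 and 994 in M0 to 399, 591 and 782 in M1 (log2 fold change -0.89 ± 0.24, adjusted p = 0.00391), while in Prep+/- cells it rose from 1065, 885 and 839 in M0 to 3210.2, 3094 and 2602 in M1 (difference -2.57 ± 0.33, adjusted p = 8.03e-05). Markers of granulocyte precursors moved with Mmp8 in Prep-/- cells: of 6 tested (10 in the table), 5 fell and 0 rose, with a summed level of 67.9 to 156 CPM in M0 and 51.5 to 71.6 CPM in M1 (2 fell and 1 rose without M0 replicate 1), and their part in the fall of Mmp8 was not tested. In bulk RNA, fewer cells of a type and less RNA per cell cannot be told apart.

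Iron and antioxidant genes rose in 11 of 22 cases and fell in 6. Fth1, the ferritin heavy chain, went from 1.3 to 1.5% of all counts in M0 to 6.05 to 6.19% in M1, and from 303709.6, 243073 and 294555 in M0 to 1536933, 1385011 and 1500159 in M1 (log2 fold change 2.39 ± 0.15, adjusted p = 2.19e-09). Lcn2, which withholds iron carriers from bacteria, had 282, 126 and 121 in M0 and 40142, 52183 and 53750.1 in M1 (log2 fold change 8.11 ± 0.44, adjusted p = 5.33e-10). Sod2, the mitochondrial superoxide dismutase, had 2071, 1400.5 and 1632 in M0 and 21891, 27007 and 28440.3 in M1 (log2 fold change 3.92 ± 0.18, adjusted p = 1.2e-10). Slc40a1, which encodes ferroportin, the exporter of iron, fell from 7259, 11839 and 10684 in M0 to 822, 441 and 473 in M1 (log2 fold change -4.10 ± 0.27, adjusted p = 4.37e-09). Mt1, a metallothionein, fell from 2626, 2564 and 6597 in M0 to 551, 785 and 799 in M1 (log2 fold change -2.46 ± 0.30, adjusted p = 3.94e-06), with M0 replicate 3 far above the other M0 libraries. Of the 7 NADPH oxidase genes, 3 rose and 1 fell in Prep-/- cells (2 and 2 without M0 replicate 2, without M1 replicate 3 or with library totals alone), and 5 rose and 0 fell in Prep+/- cells. Cybb, the catalytic subunit, had 20187, 17755 and 10019 in M0 and 46926, 51392 and 47307 in M1 (log2 fold change 1.60 ± 0.19, adjusted p = 2.29e-06). The response of 6 of the 7 was lower in Prep-/- cells (5 with library totals alone), with Rac2 at a difference -0.98 ± 0.12, adjusted p = 6.22e-05. Among all genes tested, 9.15% had a lower response.

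Glycolysis rose almost throughout. Of 21 glycolysis genes and HIF-1 targets, 20 rose and 0 fell, at a median log2 fold change of 1.80 against 1.08 in Prep+/- cells. Pfkfb3, which makes the activator of phosphofructokinase, had 1289.8, 798 and 460.0 in M0 and 9062, 6941 and 6099 in M1 (log2 fold change 3.12 ± 0.28, adjusted p = 1.42e-07). Slc2a1, the glucose transporter GLUT1, had 421, 282 and 338 in M0 and 2665, 3026 and 2997 in M1 (log2 fold change 3.06 ± 0.40, adjusted p = 7.45e-06). Pkm, pyruvate kinase and the member with the highest mean CPM, had 22377, 24848 and 34727 in M0 and 72039, 76039.9 and 78675 in M1 (log2 fold change 1.47 ± 0.18, adjusted p = 2.77e-06). The M0 and M1 libraries of these genes did not overlap. The rise was larger in Prep-/- cells for 9 of the 21 and smaller for 2 (smaller for 1 without M0 replicate 1, M1 replicate 2 or M1 replicate 3 and with library totals alone). Among all genes tested, 12% had a higher and 9.15% a lower response. The TCA cycle list had 6 of 23 genes higher and 4 lower, near the 20.9% and 21.0% of all genes tested, and 2 and 5 with library totals alone. Fh1, fumarase, fell from 2440.2, 2652 and 2075 in M0 to 726, 777 and 714 in M1 (log2 fold change -1.69 ± 0.11, adjusted p = 2.66e-09). Mdh2, mitochondrial malate dehydrogenase, rose from 2222, 2175 and 2448 in M0 to 5224, 6225 and 6517 in M1 (log2 fold change 1.39 ± 0.11, adjusted p = 4.03e-08).

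Of 41 respiratory chain genes, 3 rose and 2 fell, below the shares of all genes. Cycs, cytochrome c, rose from 295, 264 and 314 in M0 to 2021, 2041 and 2386 in M1 (log2 fold change 2.88 ± 0.14, adjusted p = 1.88e-10), further than in Prep+/- cells (difference 1.37 ± 0.19, adjusted p = 0.000143). Cox4i1, the member with the highest mean CPM, had 13065, 11399.8 and 24455 in M0 and 8791, 9007 and 9368 in M1 (log2 fold change -0.85 ± 0.23, adjusted p = 0.00535), and without M0 replicate 3 it was at -0.46, under the fold criterion. Ndufb5, with 1885, 1641 and 3076 in M0 and 1278, 1436 and 1593 in M1 (log2 fold change -0.62 ± 0.19, adjusted p = 0.012), was at -0.33 without the same library. Without M0 replicate 3, 5 genes of the list rose and 0 fell, and without M0 replicate 1, M0 replicate 2 or M1 replicate 3, 3 rose and 5 fell. With library totals alone, 1 rose and 8 fell.

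Genes of cholesterol synthesis and uptake rose in Prep-/- cells, while in Prep+/- cells most of them were not called. Of 23 genes, 19 rose and 0 fell (median log2 fold change 1.14), and with library totals alone 15 rose and 1 fell. Prep+/- cells had 1 higher and 5 lower (median -0.45), against 16.7% and 20.9% of all genes tested there, so the falls were near that share. The difference was called for 21 of the 23, larger in Prep-/- cells in each case, against 12% larger and 9.15% smaller among all genes tested. The count was 19 to 21 with any 1 Prep-/- library left out and 22 with library totals alone. Hsd17b7, a ketosteroid reductase of the late pathway, had 45.2, 48.7 and 46.9 in M0 and 235, 412 and 476 in M1 in Prep-/- cells (log2 fold change 2.99 ± 0.53, adjusted p = 0.000144). In Prep+/- cells it had 133, 207 and 237 in M0 and 294, 232 and 210.3 in M1 (log2 fold change 0.35 ± 0.48, adjusted p = 0.559), and the 2 responses differed (difference 2.64 ± 0.70, adjusted p = 0.0125).

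Of 17 LXR targets and fatty acid synthesis genes, 11 rose and 1 fell (2 fell without M1 replicate 1, and 9 rose and 3 fell with library totals alone), against 3 and 3 in Prep+/- cells. Scd2, a desaturase that makes oleic acid, had 1416, 1420.0 and 1575 in M0 and 17678, 22594 and 17904 in M1 (log2 fold change 3.72 ± 0.48, adjusted p = 6.42e-06), and in Prep+/- cells 1676, 1095 and 1520.1 in M0 and 4150.1, 2306 and 2543 in M1 (difference 2.65 ± 0.62, adjusted p = 0.00635). Nr1h3, which encodes LXRα itself, rose from 256, 119.6 and 152 in M0 to 1547, 1462 and 1641 in M1 (log2 fold change 3.14 ± 0.23, adjusted p = 1.41e-08), and its response was not called different from that of Prep+/- cells (difference 0.00 ± 0.25, adjusted p = 1). Apoe, the lipid carrier and the member with the highest mean CPM, fell from 227654, 119705 and 114484 in M0 to 19503, 8226 and 8749.6 in M1 (log2 fold change -3.66 ± 0.38, adjusted p = 6.62e-07). The M0 libraries of Apoe in Prep-/- cells were all above the Prep+/- M0 libraries, at 17963 to 31297, and the fall was larger (difference -2.80 ± 0.50, adjusted p = 0.000961). Fads2, the Δ6 desaturase of polyunsaturated fatty acids, rose from 203, 227 and 323 in M0 to 869, 1274 and 879.8 in M1 in Prep-/- cells (log2 fold change 2.01 ± 0.53, adjusted p = 0.00382) and fell from 405, 338 and 396 in M0 to 77.5, 38.1 and 33.3 in M1 in Prep+/- cells (difference 4.93 ± 0.80, adjusted p = 0.000486).

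Genes of amino acid synthesis and transport were among the 5 largest positive differences between the genotypes. Asns, asparagine synthetase, rose from 119, 158 and 244 in M0 to 2132, 2466 and 2214 in M1 in Prep-/- cells (log2 fold change 3.71 ± 0.41, adjusted p = 1.13e-06) and fell from 1190.4, 1305 and 1452 in M0 to 694, 585 and 481 in M1 in Prep+/- cells (difference 4.87 ± 0.55, adjusted p = 3.01e-05). Phgdh, the first enzyme of serine synthesis, rose from 56.2, 146 and 355 in M0 to 486, 770.5 and 599 in M1 (log2 fold change 1.74 ± 0.40, adjusted p = 0.00133) and fell from 852, 707 and 802 in M0 to 50.1, 74.9 and 53.9 in M1 in Prep+/- cells (difference 5.45 ± 0.60, adjusted p = 2.53e-05). Slc7a5, the transporter of large neutral amino acids, rose from 23.1, 49.6 and 54.7 in M0 to 196, 352 and 279 in M1 (log2 fold change 2.69 ± 0.41, adjusted p = 3.81e-05) and fell from 377, 428 and 615 in M0 to 173, 114 and 155 in M1 in Prep+/- cells (difference 4.37 ± 0.56, adjusted p = 7.55e-05). In each of these genes the Prep-/- M0 libraries were below every Prep+/- M0 library and the Prep-/- M1 libraries above every Prep+/- M1 library. Asns and Trib3 are also targets of ATF4, the factor of the integrated stress response. Trib3, a pseudokinase, had 27.1, 39.9 and 78.1 in M0 and 734, 640.3 and 574 in M1 in Prep-/- cells (log2 fold change 3.74 ± 0.36, adjusted p = 2.42e-07) and 142, 205 and 221 in M0 and 204, 182 and 103 in M1 in Prep+/- cells (difference 3.96 ± 0.48, adjusted p = 4.55e-05).

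Of the 17 unfolded protein response genes, which include Asns and Trib3, 14 rose and 1 fell in Prep-/- cells, at a median log2 fold change of 1.56 against 0.76 in Prep+/- cells. Hspa5, the chaperone BiP and the member with the highest mean CPM, had 11725, 10682 and 10645 in M0 and 31411, 31710.4 and 33348 in M1 (log2 fold change 1.55 ± 0.13, adjusted p = 5.53e-08). Herpud1, a part of the machinery that removes misfolded proteins from the endoplasmic reticulum, fell from 2105, 1739 and 1705 in M0 to 711, 1059 and 888 in M1 (log2 fold change -1.06 ± 0.15, adjusted p = 1.45e-05), and was not called in Prep+/- cells (log2 fold change 0.42 ± 0.15, adjusted p = 0.0253). The response was higher in Prep-/- cells for 6 of the 17 and lower for 2, against 12% and 9.15% of all genes tested.

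**Figure D3:**
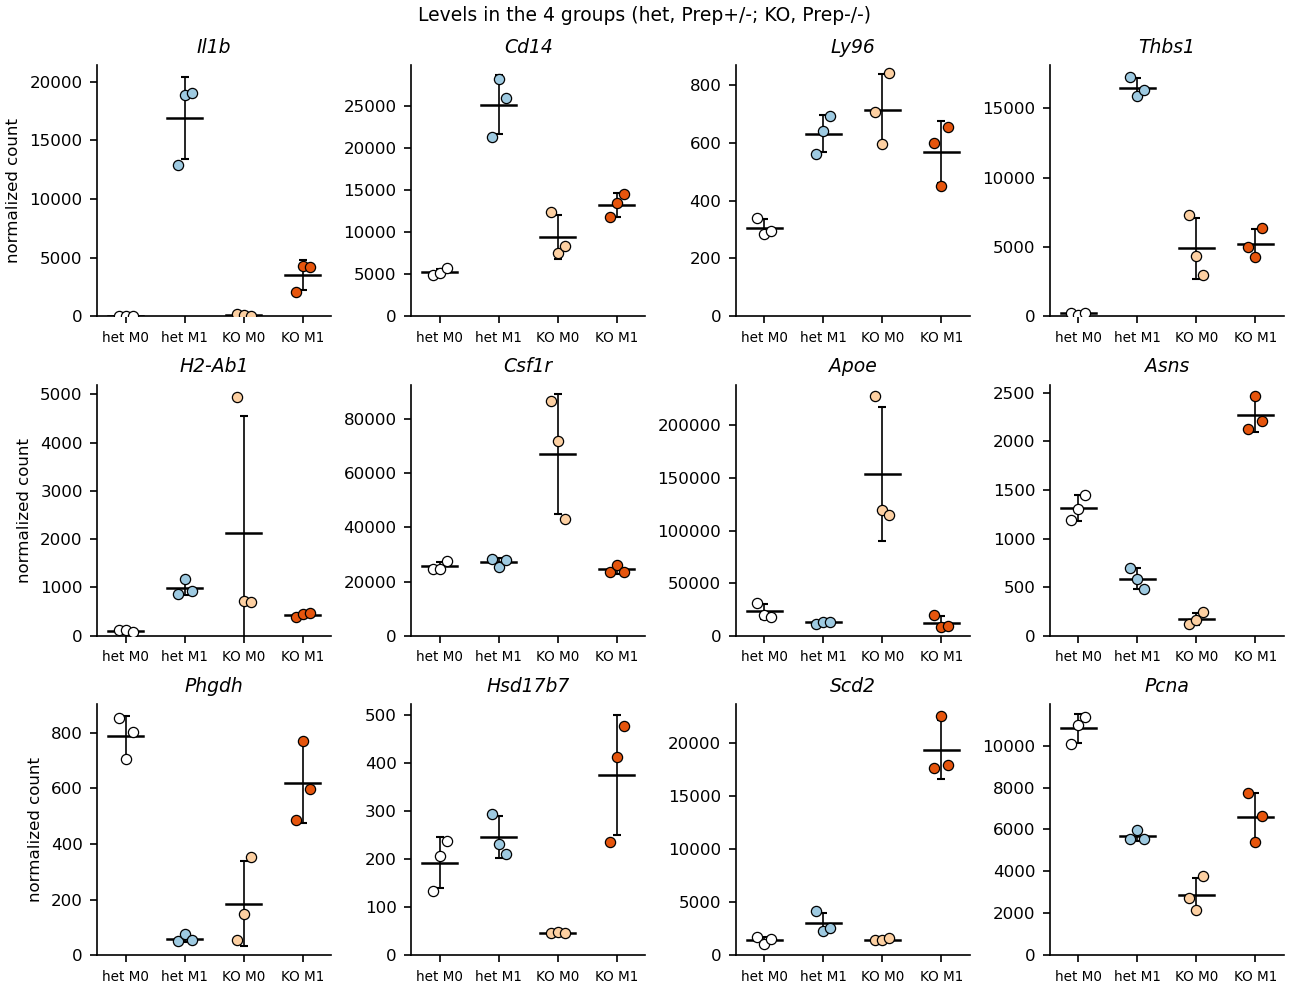
Normalized counts of 12 genes in the 3 libraries of each of 4 groups, on linear axes from 0, with the mean as a line and the SD as a bar. Asns, Phgdh and Pcna were lower in Prep-/- M0 than in Prep+/- M0 and moved in opposite directions in the 2 genotypes, Hsd17b7 and Scd2 had their highest means in Prep-/- M1, and Csf1r and Apoe had their highest values in Prep-/- M0. For H2-Ab1 only Prep-/- M0 replicate 1 was above all other libraries, and the other Prep-/- M0 libraries were below every Prep+/- M1 library.

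Mitosis genes fell without exception. All 25 mitosis genes fell in Prep-/- cells, from a log2 fold change of -0.89 to -5.36 with a median of -2.79, and all 25 fell with each library left out and under each scaling. Ccnb2, cyclin B2, went from 1005, 2152 and 2251 in M0 to 22, 58.7 and 50.6 in M1 (log2 fold change -5.36 ± 0.38, adjusted p = 1.04e-08). Cdc20, an activator of the anaphase-promoting complex, went from 671, 1315 and 1235 in M0 to 29.7, 44.8 and 52.8 in M1 (log2 fold change -4.66 ± 0.33, adjusted p = 1.04e-08). Mki67, the member with the highest mean CPM, went from 2178, 5029.7 and 4132 in M0 to 983, 1171 and 849.7 in M1 (log2 fold change -1.92 ± 0.27, adjusted p = 1.79e-05). M0 replicate 1 was the lowest M0 library for all 3 genes, and still above every M1 library. All 25 fell in Prep+/- cells too, with a median of -3.71, and M0 levels there were higher, with Mki67 at 9920.5 to 11799.9 against 2178 to 5029.7 in Prep-/- M0.

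Of 29 DNA replication genes, 3 rose, 7 fell and 19 were not called in Prep-/- cells (median -0.29). The rises were below the 20.9% and the falls near the 21.0% of all genes tested. With library totals alone 2 rose and 12 fell (median -0.54). In Prep+/- cells 0 rose and 27 fell (median -1.27). The response was higher in Prep-/- cells for 16 of the 29 and lower for 0, and for 13 to 22 with any 1 Prep-/- library left out. Pcna, the sliding clamp, rose from 2728, 2146 and 3757 in M0 to 7734, 5407 and 6649.7 in M1 in Prep-/- cells (log2 fold change 1.2 ± 0.30, adjusted p = 0.00261) and fell from 10063, 11008 and 11391 in M0 to 5551, 5963 and 5557 in M1 in Prep+/- cells (difference 2.12 ± 0.42, adjusted p = 0.00201). Ccne1, cyclin E1, rose from 37.1, 56.7 and 54.7 in M0 to 153, 181 and 172 in M1 (log2 fold change 1.76 ± 0.31, adjusted p = 0.000141) and fell from 593, 748 and 683 in M0 to 406, 393 and 359 in M1 in Prep+/- cells (difference 2.57 ± 0.41, adjusted p = 0.000429). Mcm7, of the replicative helicase, fell from 506, 842 and 1199 in M0 to 177, 308 and 333 in M1 (log2 fold change -1.64 ± 0.27, adjusted p = 7.07e-05), and from 3411, 3261 and 3178 in M0 to 906, 1002 and 827 in M1 in Prep+/- cells. The Prep-/- M0 libraries were below the Prep+/- M0 libraries for all 3 genes.

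Cytosolic ribosomal protein genes fell as a group. Of 45, 39 fell and 0 rose (median log2 fold change -0.94, -1.19 with library totals alone), and 32 fell without M0 replicate 3. Rplp0, the member with the highest mean CPM, had 34977, 34686 and 52563 in M0 and 20212, 23354 and 23195 in M1 (log2 fold change -0.87 ± 0.16, adjusted p = 0.000245). Over 1093 of its 1365 transcript bases Rplp0 is 97.6% identical to a transcript annotated under Zfp493, so its count is less certain. Rpl10a had 11374, 11729 and 16290.4 in M0 and 4115, 4963 and 4786 in M1 (log2 fold change -1.51 ± 0.15, adjusted p = 2.85e-07). Rpl3 had 18150.2, 22905 and 26078 in M0 and 6835, 10044 and 8613 in M1 (log2 fold change -1.4 ± 0.15, adjusted p = 9.26e-07). M0 replicate 3 was the highest library for all 3 genes, and the M1 libraries were below every M0 library. Prep+/- cells had 3 lower and 1 higher (median -0.23). The difference was called for 20 of the 45, lower in Prep-/- cells, a count that went to 8 without M0 replicate 3, 9 to 11 with any 1 M1 library left out, 35 without M0 replicate 1, 37 without M0 replicate 2, 13 with the replicate block, 35 in DESeq2 and 5 with library totals alone. Of 24 splicing factors, 1 rose, below the share of all genes, and 5 fell, near the 21.0% of all genes tested. Without M0 replicate 2, 9 fell. Hnrnpa2b1, the member with the highest mean CPM, had 8085, 9229 and 11576 in M0 and 4887, 4954 and 5658 in M1 (log2 fold change -0.90 ± 0.12, adjusted p = 7.62e-06). Snrpe, of the spliceosome core, had 997, 834 and 2299 in M0 and 511, 549.6 and 618 in M1 (log2 fold change -1.3 ± 0.29, adjusted p = 0.00122), and without M0 replicate 3 its log2 fold change was -0.74. With library totals alone 0 splicing factors rose and 12 fell.

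Of 40 lysosomal genes, 8 rose and 6 fell, with a median log2 fold change of 0.06 (-0.20 with library totals alone). Neither count was above the 20.9% and 21.0% of all genes tested. Psap, the member with the highest mean CPM, which encodes the precursor of the saposins, was not called (log2 fold change -0.26 ± 0.16, adjusted p = 0.163). Ctsz and Ctsc, lysosomal cathepsins, rose from 21651, 16414 and 23611 in M0 to 51165, 48642 and 51419 in M1 (log2 fold change 1.29 ± 0.14, adjusted p = 8.43e-07) and from 15318, 12443 and 9312 in M0 to 29306, 28275 and 32554 in M1 (log2 fold change 1.28 ± 0.23, adjusted p = 0.000142). Ctsf, another cathepsin, fell from 1289.8, 875 and 1068 in M0 to 125, 126 and 93.7 in M1 (log2 fold change -3.23 ± 0.22, adjusted p = 8.03e-09), further than in Prep+/- cells (difference -1.80 ± 0.30, adjusted p = 0.00067). Laptm5, a lysosomal membrane protein of blood cells, fell from 46368, 41535 and 56318 in M0 to 19742, 18069 and 17576 in M1 (log2 fold change -1.38 ± 0.14, adjusted p = 6.57e-07). Of 20 inflammasome and cell death genes, 14 rose and 1 fell. Bcl2l1, which encodes the survival protein BCL-XL, rose from 624, 348 and 774 in M0 to 3862, 2928 and 3904 in M1 (log2 fold change 2.62 ± 0.46, adjusted p = 0.000125). Nlrp1b, an inflammasome sensor, fell from 1384, 1067 and 849.6 in M0 to 267, 290.3 and 196 in M1 (log2 fold change -2.13 ± 0.26, adjusted p = 3.15e-06). Of 11 tested prolyl peptidase genes, relatives in activity of Prep, Xpnpep1 rose (log2 fold change 0.86 ± 0.10, adjusted p = 3.23e-06), Prcp and Pepd fell, and 8 were not called. These counts were below the 20.9% and 21.0% of all genes tested. Without M0 replicate 2, 2 rose. Prcp, a lysosomal carboxypeptidase that cuts after proline, had 5419, 4685 and 5368 in M0 and 1817, 1824 and 1726 in M1 (log2 fold change -1.53 ± 0.11, adjusted p = 1.25e-08). Prcp had 1503, 1312 and 1369 in M0 and 1421, 1423 and 1402 in M1 in Prep+/- cells and was not called, and the 2 responses differed (difference -1.55 ± 0.16, adjusted p = 1.15e-05).

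The 10 largest rises and 10 largest falls, among called genes that averaged 5 CPM or more and whose groups were apart, lay past 64-fold on both sides. Saa3 (GRCm39 chr7:46361422-46365576), an acute-phase serum amyloid, had 1146, 1127 and 120.1 in M0 and 806687, 854273 and 831761 in M1 (log2 fold change 10.02 ± 1.03, adjusted p = 5.28e-07), and took 3.25 to 3.73% of all counts in the M1 libraries against at most 0.00601% in M0. M0 replicate 3 was the lowest by far. Cd38, an enzyme that consumes NAD, had 10.04, 14.2 and 8.79 in M0 and 6325, 7011 and 7788 in M1 (log2 fold change 9.29 ± 0.29, adjusted p = 2.08e-12). Lipg, endothelial lipase, was at 3 counts or fewer in each M0 library and had 0, 1.77 and 0 in M0 and 819, 171 and 339 in M1, at least 155-fold higher when each M0 library is set at 3 counts. Serpinb2, an inhibitor of plasminogen activators, was likewise at least 139-fold higher, with 3.01, 0 and 0 in M0 and 146, 419 and 631 in M1. In Prep+/- M1 libraries Serpinb2 was at 4201 to 5830, above every Prep-/- M1 library, and Lipg at 26.2 to 50.0, below them. The difference of the responses was called for neither gene, although for Lipg it was called in DESeq2 (adjusted p = 0.0399). Slfn4, a myeloid Schlafen protein, had 49.2, 38.1 and 16.6 in M0 and 16318, 8109 and 13885 in M1 (log2 fold change 8.52 ± 0.45, adjusted p = 3.96e-10) and is 96.2% identical to Slfn3 over 1172 of its 3878 transcript bases. Nos2, Acod1, Ccl5, Ptges and Cfb, given above, complete the rises.

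On the side of the falls, Gpr34, a lysophosphatidylserine receptor of resting macrophages and microglia, had 1566, 1469.6 and 1418 in M0 and 2.2, 4.27 and 2.15 in M1 (log2 fold change -8.95 ± 0.42, adjusted p = 1.2e-10). Slco2b1, an organic anion transporter, had 858, 875 and 853 in M0 and 4.4, 1.07 and 3.23 in M1 (log2 fold change -8.16 ± 0.39, adjusted p = 1.2e-10). Gprc5c, an orphan receptor, had 1985, 1781 and 893 in M0 and 3.3, 9.6 and 3.23 in M1 (log2 fold change -8.13 ± 0.39, adjusted p = 1.41e-10). Ramp1, which makes the calcitonin gene-related peptide receptor, had 689, 605 and 1023 in M0 and 9.9, 4.27 and 2.15 in M1 (log2 fold change -7.12 ± 0.61, adjusted p = 6.91e-08). In the M1 libraries all 4 were at normalized counts under 10. Sult1a1, a sulfotransferase, had 1438, 1108 and 1054 in M0 and 13.2, 20.3 and 11.8 in M1 (log2 fold change -6.30 ± 0.37, adjusted p = 1.2e-09). Nat8l had 357, 336 and 313 in M0 and 2.2, 6.4 and 4.31 in M1 (log2 fold change -6.24 ± 0.65, adjusted p = 6.14e-07) and Lrrc14b had 157, 349 and 214 in M0 and 3.3, 1.07 and 5.38 in M1 (log2 fold change -6.16 ± 0.69, adjusted p = 1.46e-06). Adgre4, an adhesion receptor of the F4/80 family, had 2082, 879.6 and 490.2 in M0 and 8.8, 29.9 and 14.0 in M1 (log2 fold change -6.02 ± 0.56, adjusted p = 1.84e-07). Hpgd and Ciita, given above, complete the falls. For Gpr34 the Prep+/- M0 libraries were at 89.4 to 196, and its fall in Prep-/- cells was larger (difference -4.55 ± 0.79, adjusted p = 0.000821). Adgre4 did not change in Prep+/- cells past the thresholds, with 51.1, 33.4 and 37.3 in M0 and 43.3, 39.3 and 48.7 in M1 (difference -6.13 ± 0.77, adjusted p = 6.2e-05).

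**Figure D4:**
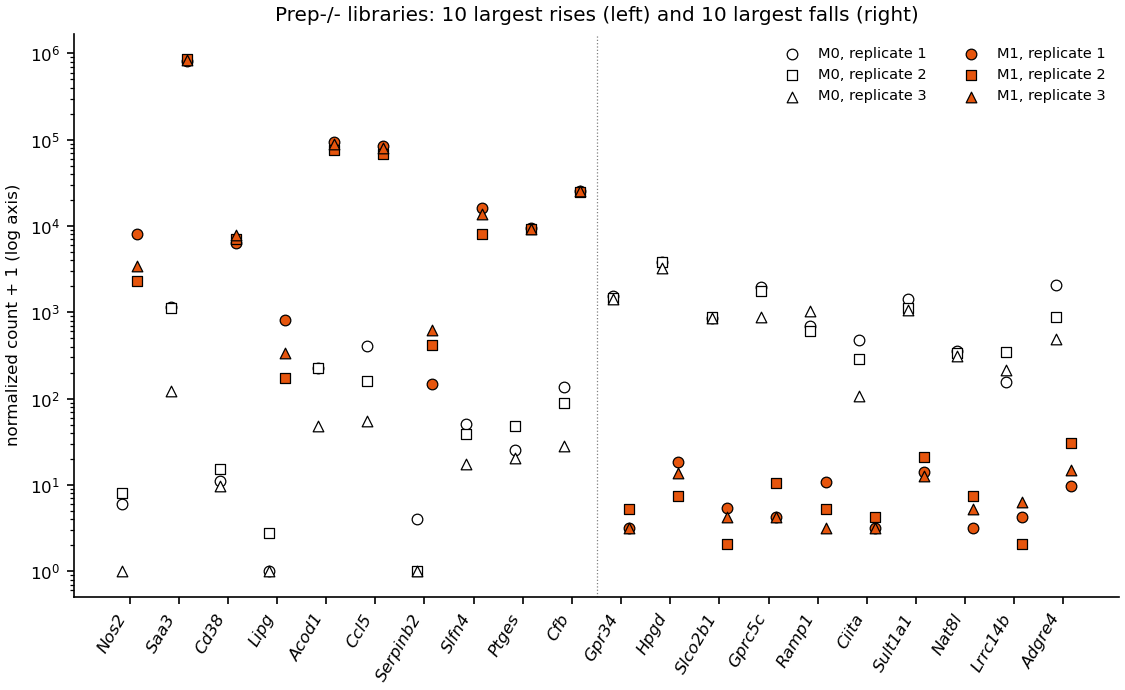
Normalized count plus 1, on a log axis, in each of the 6 Prep-/- libraries for the 10 largest rises and 10 largest falls, with the replicate given by the marker's shape. The M0 (open) and M1 (orange) libraries are apart for all 20 genes. M0 replicate 3 (open triangle) is the lowest M0 library, or tied for the lowest, for every gene but Ramp1 and Lrrc14b. Levels compare within a gene, since the values are not per length.

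Markers of other cell types in the marrow were low in the 6 libraries beside the macrophage markers. The highest sums were those of granulocyte precursors, given above, at 67.9 to 156 CPM in M0 and 51.5 to 71.6 CPM in M1. Markers of erythroid cells summed to 0.052 to 0.369 CPM over all 6. B cell markers summed to 8.66 to 11.5 CPM in M0 and 5.09 to 6.96 CPM in M1, with Ms4a1 and Ebf1 at 0. T and NK cell markers summed to at most 1.4 CPM with Cd3d at 0, mast cell and basophil markers to at most 0.0419 CPM, and dendritic cell markers to at most 1.52 CPM. Stromal cell markers summed to 0.784 to 18.5 CPM in M0 and 6.26 to 18.1 CPM in M1. Of 8 macrophage markers, Fcgr1, Adgre1 and Itgam rose, Csf1r fell and 4 were not called. Of the other markers, Lck of T cells (log2 fold change 2.23 ± 0.49, adjusted p = 0.001) and the stromal Dcn (log2 fold change 4.46 ± 0.64, adjusted p = 1.83e-05) rose from low levels.

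Beside the Prep-/- response, Prep+/- cells had 2011 genes higher (16.7%) and 2518 lower (20.9%). With library totals alone these were 1052 and 4995. Of the genes that rose in Prep-/- cells, 1358 also rose in Prep+/- cells, which is 53.9% of the former and 67.5% of the latter. Of those that fell, 1503 were shared, 59.4% and 59.7% of each list. Called in opposite directions were 75 genes that rose in Prep-/- and fell in Prep+/- cells and 36 with the reverse pattern. Across genes the 2 sets of log2 fold changes, which share no library, had a Pearson correlation of 0.775 and a Spearman correlation of 0.663 over 12021 genes, which are not independent of each other. The test of the difference called 1440 genes with a higher response in Prep-/- cells (12%) and 1100 with a lower one (9.15%), and with library totals alone 2187 and 644, so that the share on the higher side went from 56.7% to 77.3%. Each contrast is made of the M0 and M1 levels of both genotypes, so that a difference can come from either state.

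The 5 largest positive differences among genes that averaged 5 CPM or more were Phgdh, Fads2, Asns, Slc7a5 and Pcdhgc3, a clustered protocadherin that shares its last exons with its whole cluster and whose count is uncertain for that reason (difference 4.71 ± 0.99, adjusted p = 0.00302). The 5 largest negative ones were Thbs1, Adgre4, H2-Ab1, Ms4a4a and Acpp. Thbs1, which encodes thrombospondin-1, a matrix protein that activates latent TGF-β, had 7336, 4357 and 2963 in M0 and 4986, 4236 and 6387 in M1 in Prep-/- cells and was not called (log2 fold change 0.09 ± 0.28, adjusted p = 0.801). In Prep+/- cells it had 232, 111 and 249 in M0 and 17255, 15859.5 and 16339 in M1 (log2 fold change 6.39 ± 0.36, adjusted p = 9.18e-10), so that the Prep-/- libraries of both states lay between the 2 Prep+/- groups (difference -6.30 ± 0.44, adjusted p = 5.98e-07). Ms4a4a, a membrane protein of the CD20 family, had 8426, 4946 and 6856 in M0 and 7403, 5115 and 6281 in M1 in Prep-/- cells (log2 fold change -0.11 ± 0.35, adjusted p = 0.812) and 332, 120.3 and 151 in M0 and 6839.7, 7958 and 8335 in M1 in Prep+/- cells (difference -5.37 ± 0.53, adjusted p = 9.85e-06). The Prep-/- M0 libraries of Ms4a4a overlapped the Prep+/- M1 libraries. Acpp, an acid phosphatase, had 48.2, 36.3 and 17.6 in M0 and 42.9, 90.7 and 64.6 in M1 (log2 fold change 0.96 ± 0.35, adjusted p = 0.0267), with groups that overlapped, and its call in Prep-/- cells was lost in the fit of the 6 libraries with the replicate block (adjusted p = 0.0723) or without it (adjusted p = 0.0973), with library totals alone (adjusted p = 0.11) and without M0 replicate 2 (adjusted p = 0.0526), M0 replicate 3 (log2 fold change 0.62, adjusted p = 0.129), M1 replicate 2 (log2 fold change 0.62, adjusted p = 0.174) or M1 replicate 3 (adjusted p = 0.0576). Acpp rose in Prep+/- cells from 13.5, 17.5 and 7.63 in M0 to 711, 912 and 949 in M1 (difference -5.08 ± 0.51, adjusted p = 1.15e-05).

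**Figure D5:**
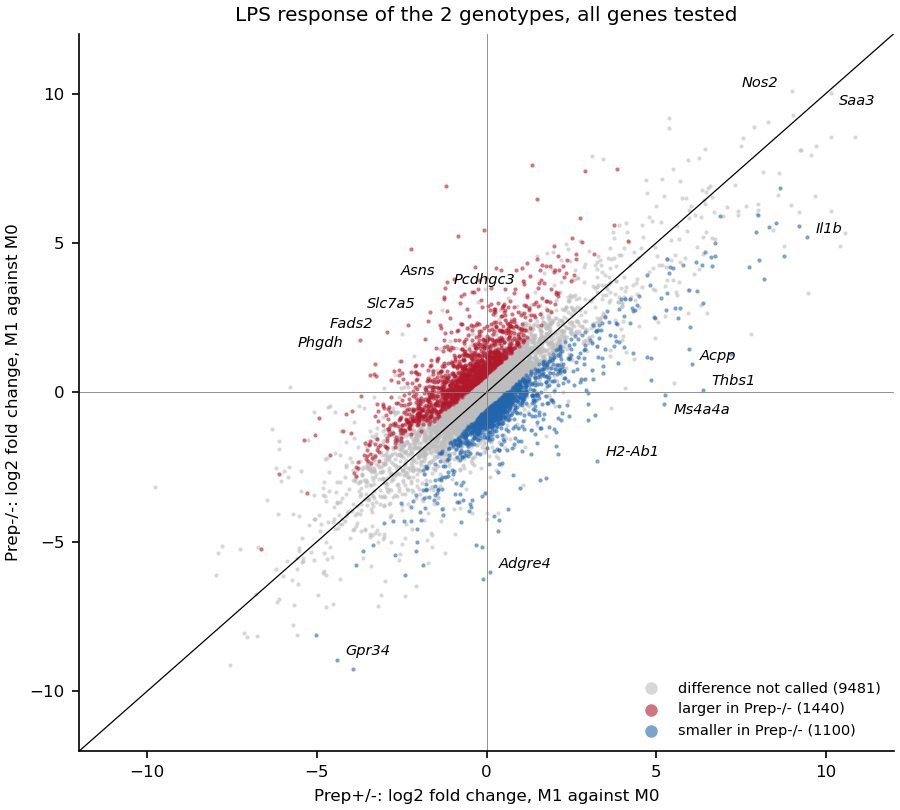
Log2 fold change in M1 against M0 of each of the 12021 genes tested, Prep+/- cells on the x axis and Prep-/- cells on the y axis, with the line of equal response. Nos2 and Saa3 lie near the line, the 1440 genes with a higher response in Prep-/- cells (red) lie above it and the 1100 with a lower one (blue) below it, among them Thbs1 and Ms4a4a near 0 on the y axis.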

How the data were processed

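RNA-seq was made from 18 BMDM libraries, 3 for each of 6 groups (2 genotypes in the M0, M1 and M2 states), grouped by the labels. The authors deposited raw counts per gene symbol, made, by the study's methods and the submitters' processing notes, from reads trimmed with Trimmomatic 0.36, aligned to GRCm39 with HISAT2 2.2.1.0 and assembled with StringTie. The annotation release, the strand setting and the treatment of reads that map to several places were not given in the sources used here, so genes with near-identical copies and genes that overlap others are less certain.

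The counts of all 18 libraries (19068237 to 22598279 per library) were filtered with edgeR's filterByExpr, which left 12021 of 16314 symbols, scaled by TMM and fitted with edgeR 4.0.16 (R 4.3.3; glmQLFit and glmQLFTest) with 1 coefficient per group. Genes were called when the Benjamini-Hochberg adjusted p was below 0.05 and the change exceeded 1.5-fold, as in the study's own criteria. The contrasts were Prep-/- M1 against M0, the same in Prep+/- cells, and the difference of the 2 (Prep-/- minus Prep+/-). Where all 3 libraries of a group held 3 counts or fewer, a fold is a lower bound with each library set at 3 counts. Counting error alone is what these bounds cover. The scripts were tested on simulated counts with 200 changed genes. These were changed in Prep-/- M1 alone, evenly upward and downward, so the simulation does not bear on the choice of scaling.

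Gene positions and promoters came from GRCm39 with GENCODE M39, to which 15668 of the 16314 symbols were matched. Near copies were found by blastn 2.17.0 over the transcripts of named genes, at 90% identity or more over at least 150 bases and 30% of the transcript.

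Named genes are the 10 largest rises and falls among called genes that averaged 5 CPM or more, with groups apart, the 2 largest called rises and falls and the highest member of each of 34 lists, Prep, 8 markers the study shows, Tlr4, Cd14 and Ly96, and the 5 largest differences each way, 155 genes in all, after leaving out genes that are not reported here. The 6 libraries were taken by their labels, but this comparison, the gene lists and the rule were chosen with earlier results of these data known. Counts within the lists are therefore not independent of those results. Genes at 3 counts or fewer in a whole group and Lck and Dcn were chosen after their values were seen.

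M0 and M1 libraries of the same replicate number had correlated deviations from their group means in Prep-/- cells (0.239, 0.196 and 0.310 across genes). In Prep+/- cells these correlations were -0.351, 0.122 and -0.0836. Pairs of different number were at -0.250 to 0.0184 in Prep-/- cells. In Prep+/- cells such pairs reached 0.434 (M0 replicate 3 and M1 replicate 1), so values of this size also arose without a shared number. A fit with the replicate number as a block was run as an alternative. The other alternatives were DESeq2 1.42.0, RLE factors, library totals alone, no filter or a filter of 1 CPM in 3 libraries, glmTreat, a fold change over 2, the adjusted p alone, only the libraries compared, and leaving out each library of the comparison. No 2 replicates agreed within sampling noise.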

Additional observations from a re-analysis of the deposited data

Results flagged for a closer look

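The response to LPS differed between the genotypes by the test of the difference (Prep-/- minus Prep+/- log2 fold change) for 70 of the 155 named genes, 24 upward and 46 downward. The named genes were partly chosen for this difference, and the share of all genes tested was 12% upward and 9.15% downward.

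Opposite calls in the genotypes were seen for 10 genes. Phgdh (5.45), Fads2 (4.93), Asns (4.87), Slc7a5 (4.37), Ccne1 (2.57) and Pcna (2.12) rose in Prep-/- and fell in Prep+/- cells. H2-Ab1 (-5.54), Mmp8 (-2.57), Ccl6 (-2.18) and P2ry6 (-1.41) did the reverse.

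Called in Prep-/- cells and not in Prep+/- cells were 8 genes that rose, which are Pcdhgc3 (4.71), Trib3 (3.96), Scd2 (2.65), Hsd17b7 (2.64), Fos (2.02), Atf3 (1.17), the isocitrate dehydrogenase subunit Idh3a (1.10) and the RNA-binding Hnrnpd (0.77). Another 8 fell, which are Adgre4 (-6.13), H2-Aa (-4.64), Csf1r (-1.55), Prcp (-1.55), Herpud1 (-1.48), Tgfb1 (-1.15), Tyrobp (-1.10) and Laptm5 (-0.88). Called in Prep+/- cells alone were Thbs1 (-6.30), Ms4a4a (-5.37), Cd14 (-1.78) and Ly96 (-1.37), which rose there, and Tlr4 (0.84), which fell. Alox5ap, which serves leukotriene synthesis, was called in neither genotype and differed by -0.87. It was called lower in Prep-/- cells with library totals alone (log2 fold change -0.72, adjusted p = 0.000499), without M0 replicate 2 (-0.60, adjusted p = 0.00917) and without M1 replicate 3 (-0.59, adjusted p = 0.017), while the rise of Hnrnpd went under the fold criterion with library totals alone (0.43).

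Of genes that rose in both, 16 rose less in Prep-/- cells. They are Acpp (-5.08), Il1b (-4.27), Gbp6 (-2.81), Zbp1 (-2.53), Gbp2 (-1.93), Fpr1 (-1.80), Irf7 (-1.74), B2m (-1.19), Pfkfb3 (-1.12), Ikbke (-1.04), Cybb (-0.99), Socs3 (-0.98), Rac2 (-0.98), Nfkbia (-0.88), Irak3 (-0.83) and Sod2 (-0.80). The 8 that rose more are Dusp1 (2.62), Msr1 (1.95), Tnip3 (1.5), Cycs (1.37), Adam8 (1.19), Id2 (1.11), Pkm (0.75) and Hspa5 (0.60).

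Of genes that fell in both, 13 fell further in Prep-/- cells. They are Gpr34 (-4.55), Clec10a (-3.23), Gprc5c (-3.10), Clec7a (-2.87), Apoe (-2.80), Ctsf (-1.80), Ptgs1 (-1.63), Mt1 (-1.18), Icosl (-0.94), Fh1 (-0.90), Rpl10a (-0.85), Rpl3 (-0.77) and Timp2 (-0.69). Mki67 fell less (1.32).

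Of the 70 differences, 40 were called under every alternative run, and the other 30 were lost under a stricter fold criterion. The differences of 14 genes were lost when 1 Prep-/- library was left out. Without M0 replicate 1, those of Fpr1 (adjusted p = 0.12), Gprc5c (0.0511), Icosl (0.13), Irak3 (0.124), Pfkfb3 (0.121), Pkm (0.078), Socs3 (0.0613), Sod2 (0.0539) and Timp2 (0.103) were lost. Without M0 replicate 2, those of Icosl (0.0563), Id2 (0.0517), Irak3 (0.0885) and Pkm (0.0664) were lost, and Hspa5 went under the fold criterion (difference 0.57). Without M0 replicate 3, that of Mt1 was lost (0.126), and Hspa5 went under the fold criterion (0.58). Without M1 replicate 1, those of Gprc5c (0.078), Icosl (0.101), Id2 (0.0764), Irak3 (0.0997), Mt1 (0.109) and Pkm (0.0532) were lost. Without M1 replicate 2, those of Icosl (0.0612), Mki67 (0.0529), Mt1 (0.0655), Pfkfb3 (0.0726), Pkm (0.0691) and Timp2 (0.0928) were lost. Without M1 replicate 3, those of Fos (0.053), Gprc5c (0.0736), Icosl (0.0699), Irak3 (0.0692), Mt1 (0.06), Pfkfb3 (0.0816), Pkm (0.0741) and Timp2 (0.0776) were lost, and Hspa5 was at 0.56. With another scaling, filter or tool, those of 10 genes were lost (Gprc5c, Hspa5, Icosl, Irak3, Mt1, Pfkfb3, Rpl3, Socs3, Sod2 and Timp2), and with the replicate block that of Irak3 was lost (adjusted p = 0.0517).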

How the results depend on the processing

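In Prep-/- cells the counts of genes higher and lower were 1497 and 1499 at a fold change over 2 and 1627 and 1585 in glmTreat, 2 criteria that are stricter by construction, against 2518 and 2530. In Prep+/- cells they were 1169 and 1612, 1313 and 1643, and 1052 and 4995 with library totals alone. For the difference of the responses they were 862 and 553, 446 and 305, and 2187 and 644. DESeq2 gave 2486 and 2674 for Prep-/- cells, and the adjusted p alone 3517 and 3342. Leaving out each library of the comparison gave 2275 to 2568 higher and 2478 to 2739 lower in Prep-/- cells, 1834 to 2039 and 2339 to 2596 in Prep+/- cells, and 1213 to 1664 and 913 to 1423 for the difference, for which Prep-/- libraries were left out and Prep+/- libraries were not. With the replicate block the Prep-/- counts were 2348 and 2473 over the 6 libraries and 2548 and 2501 over all 18, and the difference had 1488 and 1098. Of the named genes the block over the 6 libraries changed the Prep-/- call of Acpp alone. Of 2634 refits of the Prep-/- change of the 155 named genes, 2565 kept the direction and the side of the threshold, 56 lost the call, 13 gained one and 0 reversed. Of 1156 recounts of the lists, 86 moved by over 1.5 times, 12 with library totals alone and 17 in glmTreat. The cause was not tested. With 3 libraries per group the spread between libraries, not depth, limits abundant genes, while genes at 3 counts or fewer in a group have only a bound.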

Other observations

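Some called genes were at 3 counts or fewer in each of the 3 libraries of 1 state and at a normalized count of at least 100 in each library of the other. Il23r, a receptor subunit for IL-23, had 0, 0 and 0.977 in M0 and 109, 112 and 106 in M1 and was at least 38.0-fold higher when each M0 library is set at 3 counts. Cxcl3, a neutrophil attractant, had 2.01, 2.66 and 0 in M0 and 143, 138 and 211 in M1, at least 57.2-fold higher. Saa1, a serum amyloid best known from liver, had 0, 0.886 and 2.93 in M0 and 101, 118 and 109.8 in M1, at least 38.3-fold higher. Nptx1, a pentraxin, had 264, 127 and 124 in M0 and 0, 2.13 and 2.15 in M1, at least 52.9-fold lower. In Prep+/- M1 libraries Cxcl3 was at 3275 to 6204, Il23r at 293 to 341 and Nptx1 at 14.8 to 29.5, above every Prep-/- M1 library. Saa1 was at 32.1 to 39.8 there, below every Prep-/- M1 library. The difference of the 2 responses was not called for any of them. These 4 genes were chosen after their values were seen.

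Per kilobase of exon, taken over the exons of all annotated transcripts of a gene, Fth1 ranked 5 in M0 and 1 in M1. This length can exceed that of the transcript expressed, so the ranks compare levels between genes only roughly. The ranks are over all 15668 symbols matched to a gene model. Saa3 went from rank 2562 to rank 3, Ccl5 from 3136 to 8, Acod1 from 6294 to 13 and Hmox1, which encodes the inducible heme oxygenase, from 108 to 9. Lyz2, which encodes lysozyme, was at rank 2 in M0 and 4 in M1, and Psap at 3 and 7.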
